A study of Mus musculus with 12 samples.

Results

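Ear skin challenged with imiquimod cream and given the LXR agonist GW3965 was compared with ear skin of the UTX/Veh group to describe what still differed from untreated skin under the agonist. The members were the 3 libraries labelled IMQ/GW3965 and the 3 labelled UTX/Veh, 6 of the 12 RNA-seq libraries in the series, chosen by their labels alone. All mice were C57BL/6, between 8 and 12 weeks old, and whole ear skin was sampled at day 6. In the IMQ/GW3965 group, 20.8 mg of Aldara cream, which holds 5% imiquimod, was put on the dorsal ears every day, and GW3965 was injected into the peritoneum once a day at 20 mg/kg from day 3. The UTX/Veh group received the DMSO vehicle, and the labels do not spell out UTX, which is read here as untreated with imiquimod. The IMQ/Veh group (3 libraries, the same cream with DMSO) is set beside both to show the level reached without the agonist. No group received GW3965 without imiquimod, so a difference between IMQ/GW3965 and UTX/Veh holds the effects of the cream and of the agonist together, and these cannot be told apart. The labels do not say whether replicate libraries came from separate mice, so each p-value reflects the spread of these libraries alone, which may be technical.

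Imiquimod activates Toll-like receptors on myeloid cells and, put repeatedly on mouse skin, gives a psoriasis-like state with IL-23 and IL-17 cytokines, neutrophils in the epidermis and a thickened, fast-dividing keratinocyte layer. Keratinocytes in this state switch from the resting programme of filaggrin, loricrin and late envelope proteins to the wound keratins Krt6, Krt16 and Krt17 with small proline-rich proteins. LXR alpha and LXR beta, encoded by Nr1h3 and Nr1h2, are nuclear receptors for oxysterols. They switch on cholesterol export (Abca1, Abcg1, Apoe) and fatty acid synthesis through Srebf1 and Scd1, promote keratinocyte differentiation, and restrain inflammatory genes in macrophages.

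The library totals ran from 18242074 expected counts in IMQ/GW3965 replicate 3 to 25641602 over the series. That shallowest library stood apart in composition, since the identifier ENSMUSG00000119584 took 11.6% of its counts against 0.0454% to 0.138% elsewhere, and results without this identifier and Lars2 are among the alternatives. Keratinocyte markers (Krt5, Krt14, Krt1, Krt10) were abundant in every library, and so were skeletal muscle genes, which summed to 18865 to 21697 CPM (counts scaled to a common library size) in UTX/Veh and 10963 to 15170 CPM in IMQ/GW3965. Ear samples therefore held muscle, cartilage and fat beside skin, and in such bulk RNA fewer cells of a type and less RNA per cell cannot be told apart.

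Under GW3965 the skin was still far from the UTX/Veh state. Of 17130 genes tested, 8606 (50.2%) passed an adjusted p of 0.05, 4923 (28.7%) higher and 3683 (21.5%) lower in IMQ/GW3965. The differences were at least 2-fold for 2871 of them, at least 8-fold for 218 higher and 36 lower genes, and at least 32-fold for 90 higher genes and 2 lower genes. The libraries of the 2 groups did not overlap for 11417 of all genes tested (5970 higher and 5447 lower), so lack of overlap alone sets few genes apart. The median log2 difference over all genes tested was -0.005. Upper-quartile scaling moved that median to -0.11 and the share of changed genes that were higher from 57.2% to 47.2% (4149 higher, 4633 lower). Principal components were taken over all 12 libraries, those of the troglitazone group included. On the first component, which held 66.2% of the variance, UTX/Veh libraries lay at -76.8, -77.9 and -83.9. IMQ/GW3965 libraries lay at -1.57, 21.1 and 26.2, and IMQ/Veh libraries at 65.4, 58.2 and 32.2. The IMQ/GW3965 libraries thus lay between UTX/Veh and IMQ/Veh on that axis without overlap, replicate 1 being the nearest to UTX/Veh. Of 742 symbols in 33 gene lists, 735 were matched, 688 were tested and 47 lay below the filter on low counts. Counts of list members against UTX/Veh are to be read beside the 28.7% higher and 21.5% lower of all genes.

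**Figure D1:**
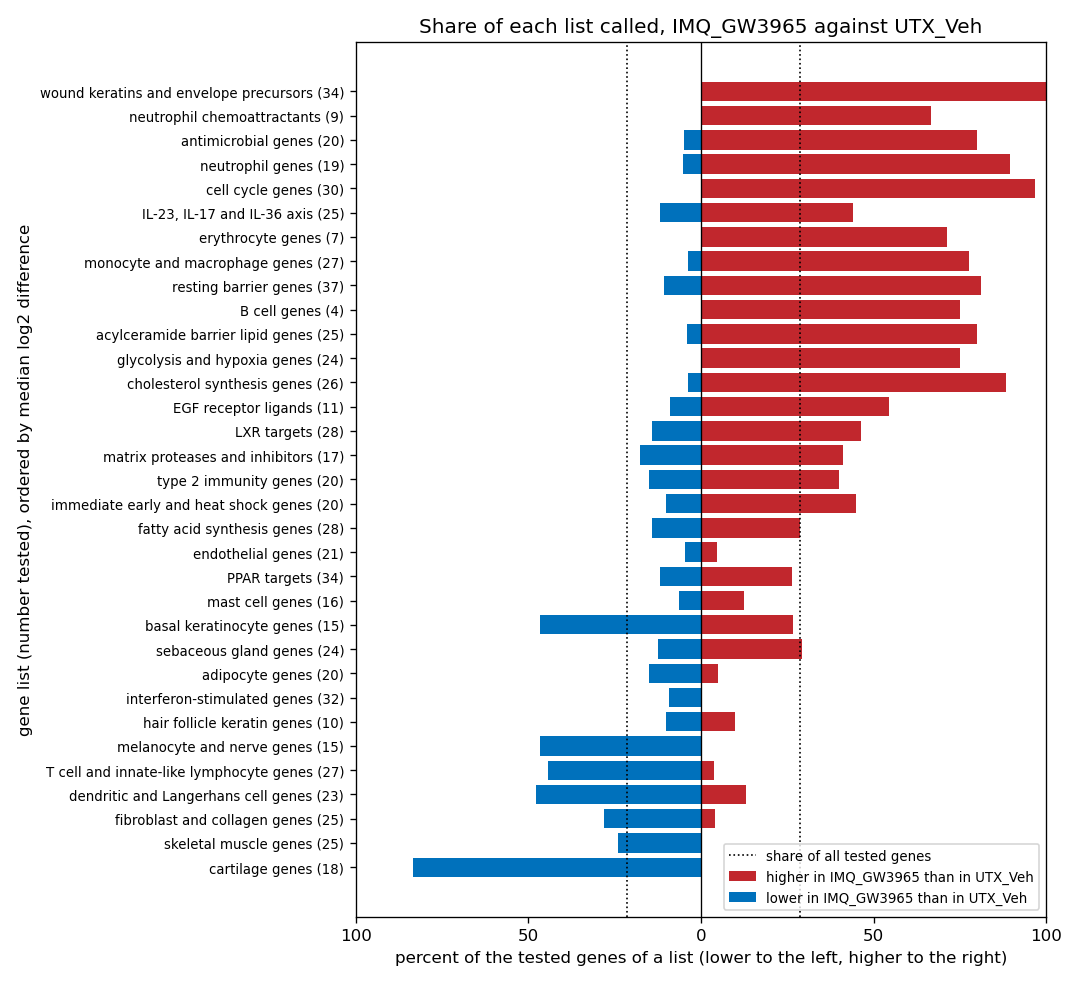
Share of each of 33 gene lists past an adjusted p of 0.05 in IMQ/GW3965 against UTX/Veh, as percent of the tested members, with higher genes to the right and lower genes to the left. Dotted lines mark the shares of all genes tested (28.7% higher, 21.5% lower). Wound keratins and envelope precursors were higher in all 34 tested members and cartilage genes were lower in 15 of 18.

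The neutrophil programme remained raised but was uneven between libraries. Of 19 neutrophil genes tested, 17 rose and 1 fell against UTX/Veh, with a median log2 difference of 3.15, beside 4.83 for IMQ/Veh against UTX/Veh. S100a8 (chromosome 3, 90668978 to 90670035, GRCm38), a subunit of the neutrophil protein calprotectin that keratinocytes also make under stress, stood at 6.17, 1.09 and 2.95 CPM in UTX/Veh replicates 1 to 3. In IMQ/GW3965 it stood at 88.7, 472 and 696 CPM, and in IMQ/Veh at 3356, 3539 and 1915 CPM. All 3 IMQ/GW3965 libraries were above UTX/Veh and below IMQ/Veh, a log2 difference from UTX/Veh of 6.93 ± 0.93 (SE, 3 libraries a group, 122-fold, adjusted p = 1.2e-04). That value became 7.70 without UTX/Veh replicate 1 and 6.33 without IMQ/GW3965 replicate 3. Its partner S100a9 showed 10.8, 1.42 and 2.73 CPM in UTX/Veh and 154, 839.5 and 1263 CPM in IMQ/GW3965, with a log2 difference of 7.23 ± 1.05 (adjusted p = 2.0e-04, 8.50 without UTX/Veh replicate 1 and 6.60 without IMQ/GW3965 replicate 3). Because keratinocytes express both S100 genes, receptor genes are given beside them, though which cells held these transcripts was not tested. The chemokine receptor Cxcr2 stood at 4.28, 4.18 and 5.55 CPM in UTX/Veh against 18.1, 33.7 and 39.1 CPM in IMQ/GW3965 (6.46-fold, adjusted p = 2.2e-05). The granulocyte colony-stimulating factor receptor Csf3r stood at 1.49, 1.04 and 1.58 CPM against 4.79, 10.6 and 8.10 CPM (5.68-fold, adjusted p = 2.3e-04), and at 39.5, 31.7 and 38.4 CPM in IMQ/Veh. Csf3r was thus raised over UTX/Veh and lower than in IMQ/Veh, by -2.22 on the log2 scale (adjusted p = 0.0064). The formyl peptide receptor Fpr1 had no count in any UTX/Veh library and 101 counts in IMQ/GW3965, at least 34.4-fold higher if UTX/Veh is set at 3 counts in all, the limit that a count of 0 allows. Its relative Fpr2 had 3 counts against 260, a ratio of 88.7 with an exact counting interval of 30.0 to 433 (log2 6.69, and 7.54 without UTX/Veh replicate 3). Mmp9, the gelatinase stored in neutrophil granules and made by other cells as well, was the member that fell, by 1.24 on the log2 scale (adjusted p = 0.0079). The surface antigen gene Ly6g (1, 5 and 14 counts) and the granule gene Ngp (0, 5 and 15 counts) were near 0 in UTX/Veh, IMQ/GW3965 and IMQ/Veh. The granule gene Ltf had 1 count in UTX/Veh and 22 in IMQ/GW3965, a ratio of 22.5 (counting interval 3.64 to 929). Summed over the list, IMQ/GW3965 libraries held 442, 1530 and 2196 CPM against 151 to 170 CPM in UTX/Veh and 5933 to 10279 CPM in IMQ/Veh.

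Signals that recruit neutrophils were raised too. Of 9 chemoattractant genes tested, 6 passed and all of these rose, and the median log2 difference was 4.16 (3.93 with genes absent from UTX/Veh at their bound), beside 7.01 for IMQ/Veh against UTX/Veh. Promoters of the 3 neighbouring Cxcl genes among them are shown because each holds the NF-kB motif (GGGA, then any base, then TTTCC), searched on either strand from 250 bases before to 50 after the RefSeq start. The motif occurred in 4 of the 8 genes of the list with a window (Cxcl1, Cxcl2, Cxcl3 and Il6) and in 126 of all 27025 genes with a window (0.466%). The 3 Cxcl genes are related neighbours and not separate cases. In the sequences printed here, read 5′ to 3′ on the plus strand of GRCm38.p6, which is the strand of the genes, capitals mark the motif, and a match describes the letters only.
Cxcl1, chr5:90891134-90891223: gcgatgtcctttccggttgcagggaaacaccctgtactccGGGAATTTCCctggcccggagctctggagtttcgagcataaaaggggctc
Cxcl2, chr5:90903762-90903851: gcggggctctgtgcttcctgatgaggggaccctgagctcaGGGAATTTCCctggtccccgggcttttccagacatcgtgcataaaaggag
Cxcl3, chr5:90785988-90786077: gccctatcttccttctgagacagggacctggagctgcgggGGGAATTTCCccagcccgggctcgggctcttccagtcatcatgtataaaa
All 3 genes encode CXCR2 ligands. Cxcl2 stood at 0.746, 0.251 and 0.0427 CPM in UTX/Veh, at 5.10, 3.32 and 14.3 CPM in IMQ/GW3965 and at 57.4, 51.4 and 40.7 CPM in IMQ/Veh. It rose by 4.37 ± 0.94 (log2 ± SE, adjusted p = 0.0026) over UTX/Veh, 5.60 without UTX/Veh replicate 1 and 3.53 without IMQ/GW3965 replicate 3. Cxcl1 stood at 2.20, 0.794 and 0.897 CPM against 6.87, 8.62 and 16.9 CPM, 8.15-fold higher (adjusted p = 0.0029, log2 3.03 and 3.66 without UTX/Veh replicate 1). Cxcl3 had 2 counts in UTX/Veh and 101 in IMQ/GW3965, a ratio of 51.7 (counting interval 13.9 to 432, adjusted p = 0.0014, log2 5.82 and 8.33 without UTX/Veh replicate 1). The UTX/Veh and IMQ/GW3965 libraries did not overlap for any of these 3 ligands, nor for 11417 of all 17130 genes tested. Il1b, the inflammasome-processed cytokine, stood at 2.08, 0.334 and 0.683 CPM in UTX/Veh, at 11.9, 12.0 and 24.6 CPM in IMQ/GW3965 and at 114, 107 and 138 CPM in IMQ/Veh. Its rise over UTX/Veh was 15.2-fold (log2 3.93 ± 0.80, adjusted p = 0.0017, log2 4.97 without UTX/Veh replicate 1). Il1a, which keratinocytes store, stood at 12.4, 13.6 and 14.2 CPM against 37.3, 53.1 and 85.0 CPM (4.35-fold, adjusted p = 9.6e-05), with 51.6 to 78.5 CPM in IMQ/Veh. Csf3, Il6 and Ppbp did not pass in edgeR (adjusted p of 0.058, 0.063 and 0.41), but Csf3 and Il6 passed with DESeq2 (0.0016 and 0.011), with lane as a covariate (0.032 and 0.039) and with no filter on low counts (0.023 and 0.031). Without IMQ/GW3965 replicate 2 their adjusted p was 0.23 and 0.24. Lane is a field of the deposited names, and lane L001 holds 2 libraries each of UTX/Veh and IMQ/GW3965 and 1 of IMQ/Veh. Cxcl5 passed (adjusted p = 0.016) on 1 count in UTX/Veh and 56 in IMQ/GW3965, a ratio of 57.3 (counting interval 9.87 to 2300.0), and its adjusted p rose to 0.101 without IMQ/GW3965 replicate 2, to 0.053 without UTX/Veh replicate 1 and to 0.051 without UTX/Veh replicate 3.

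**Figure D2:**
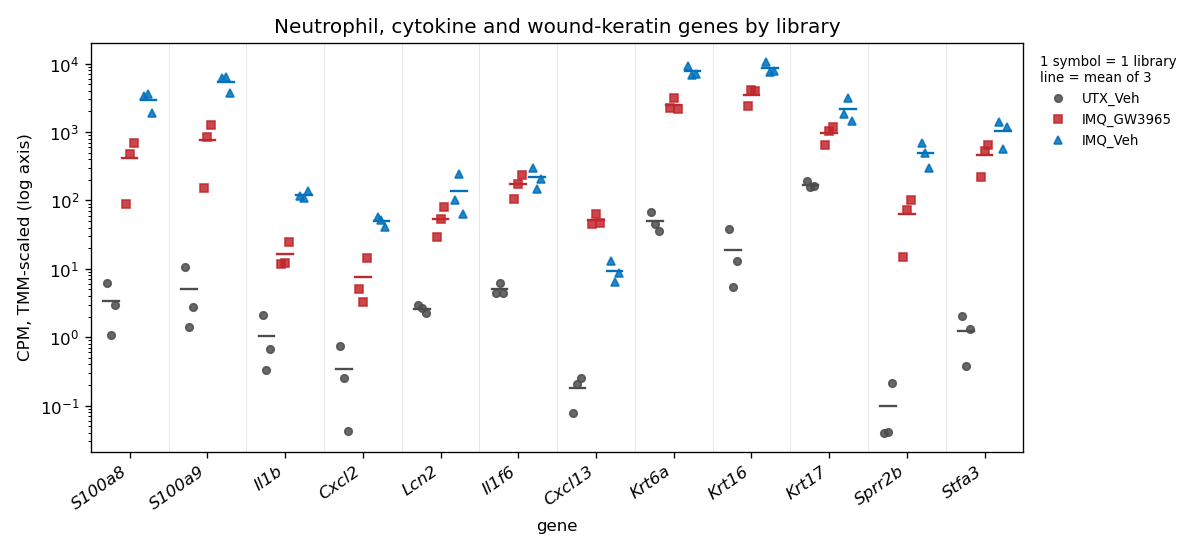
Levels of 12 neutrophil, cytokine and wound-keratin genes in each library, as TMM-scaled CPM on a log axis, by group (UTX/Veh, IMQ/GW3965 and IMQ/Veh). Each symbol is a library and each line the mean of 3. S100a8 in IMQ/GW3965 ran from 88.7 to 696 CPM, above all UTX/Veh and below all IMQ/Veh libraries, while Cxcl13 was highest in IMQ/GW3965.

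In the IL-23, IL-17 and IL-36 axis the epithelial IL-36 ligands stayed high. Il17a was near the detection floor, and Il17f was uneven between the IMQ/GW3965 libraries. Of 25 genes tested, 11 rose and 3 fell (median log2 difference 1.73, 1.62 with genes absent from UTX/Veh at their bound, beside 2.31 for IMQ/Veh against UTX/Veh). Il36a, listed under its older symbol Il1f6, stood at 4.44, 6.22 and 4.44 CPM in UTX/Veh, at 105, 175 and 235 CPM in IMQ/GW3965 and at 297, 149 and 205 CPM in IMQ/Veh. It rose 34.1-fold (log2 5.09 ± 0.34, adjusted p = 2.3e-06), and the IMQ/GW3965 and IMQ/Veh libraries overlapped. Il36b (Il1f8) rose 5.35-fold, from 19.5 to 23.6 CPM in UTX/Veh to 88.6 to 135 CPM (adjusted p = 1.2e-05). Il36g (Il1f9) rose 4.52-fold, from 36.0 to 43.0 CPM to 138 to 215 CPM (adjusted p = 8.8e-06). Their receptor Il1rl2 rose 1.73-fold (adjusted p = 2.9e-05), and Nfkbiz, the IkB-family co-factor of IL-17 and IL-36 signalling, rose 3.81-fold (adjusted p = 1.1e-04). Ccl20, the ligand of CCR6 on IL-17-producing cells, stood at 0.707, 0.543 and 0.384 CPM against 12.7, 10.5 and 30.3 CPM. That was 32.0-fold higher (log2 5.00 ± 0.80, adjusted p = 3.6e-04, log2 4.37 without IMQ/GW3965 replicate 3). Il17a had no count in UTX/Veh, and in IMQ/GW3965 it stood at 0.135, 0.156 and 0.203 CPM, against 1.71, 3.42 and 0.577 CPM in IMQ/Veh. Those 9 counts set it at least 3.07-fold above UTX/Veh, with an adjusted p of 0.094 by edgeR and of 0.012 by DESeq2. Il17f stood at 0.236, 0.0835 and 0 CPM against 0.135, 0.831 and 2.97 CPM (adjusted p = 0.068) and Il23a at 0.275, 0.0418 and 0.0854 CPM against 0.226, 0.312 and 0.945 CPM (adjusted p = 0.080), so that the groups overlapped for both. Il17f passed with DESeq2 (0.024), with no filter on low counts (0.034) and without IMQ/GW3965 replicate 1 (0.032), and Il23a without IMQ/GW3965 replicate 1 (0.048) or UTX/Veh replicate 1 (0.036), while without IMQ/GW3965 replicate 3 the adjusted p was 0.34 and 0.38. Il22 had 1 count against 40, and 2.36 CPM of it lay in replicate 3 (0.0452 and 0.208 CPM in the other IMQ/GW3965 libraries). Its adjusted p was 0.044, and between 0.096 and 0.37 without UTX/Veh replicate 1, 2 or 3 or without IMQ/GW3965 replicate 3. Il20ra, a receptor subunit for IL-20-family cytokines, fell by 1.33 on the log2 scale (adjusted p = 0.0019).

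Antimicrobial genes rose in 16 of 20 tested cases and fell in 1 (median log2 difference 3.47, 3.08 with genes absent from UTX/Veh at their bound). The beta-defensin Defb3 had no count in UTX/Veh and stood at 1.13, 7.06 and 8.58 CPM in IMQ/GW3965, at least 98.2-fold higher (adjusted p = 8.2e-04). Defb4 had 1 count against 142, a ratio of 145 with a counting interval of 25.7 to 5780.0 (adjusted p = 1.3e-04, log2 7.07 and 8.81 without UTX/Veh replicate 1). Saa3, an acute-phase apolipoprotein, stood at 0.196, 0 and 0.0854 CPM in UTX/Veh, at 18.8, 44.0 and 13.4 CPM in IMQ/GW3965 and at 92.0, 29.3 and 159 CPM in IMQ/Veh (adjusted p = 2.4e-04 against UTX/Veh). Its log2 difference of 7.97 became 9.05 without UTX/Veh replicate 1 and 7.27 without IMQ/GW3965 replicate 2. These low or absent baselines make the folds imprecise, whereas 2 secreted proteins with a measured baseline gave narrower values. Slpi, an inhibitor of neutrophil elastase, stood at 2.08, 1.17 and 1.20 CPM against 63.7, 70.9 and 104 CPM (53.2-fold, log2 5.73 ± 0.37, adjusted p = 1.9e-06). Lcn2, which withholds iron from bacteria, stood at 2.95, 2.63 and 2.26 CPM against 28.9, 54.2 and 78.9 CPM (20.5-fold, adjusted p = 1.5e-04). Wfdc21 went the other way, from 50.5, 51.6 and 40.2 CPM to 17.2, 11.3 and 21.6 CPM (log2 -1.51, adjusted p = 4.3e-04).

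Wound keratins and envelope precursors had the highest median of the 33 lists. All 34 members tested rose, against 28.7% of all genes, with a median log2 difference of 6.02, beside 7.84 for IMQ/Veh against UTX/Veh. Set against IMQ/Veh, 11 of the 34 were lower and 1, Sprr4, was higher, where 2.88% of all genes were lower and 3.71% higher. The 11 became 0 without IMQ/Veh replicate 1 or IMQ/GW3965 replicate 1, 2 and 3 without IMQ/GW3965 replicates 2 and 3, 6 without IMQ/Veh replicate 2, 19 without IMQ/Veh replicate 3 and 3 in a fit of those 2 groups alone. That second comparison is the less stable of the pair, since its 1129 calls over all genes became 102 in that fit, 105 without IMQ/GW3965 replicate 1 and 3645 without IMQ/Veh replicate 3. Tests against IMQ/Veh are therefore given only for genes that passed under most alternatives, with the exceptions named. Krt6a (chromosome 15, 101689910 to 101694307) stood at 67.3, 44.9 and 35.5 CPM in UTX/Veh, at 2239.6, 3091 and 2198 CPM in IMQ/GW3965 and at 9257, 6769.7 and 7081 CPM in IMQ/Veh. It rose 51.0-fold over UTX/Veh (log2 5.67 ± 0.43, adjusted p = 3.6e-06), and the 3 groups did not overlap. Krt16, its type I partner, stood at 37.9, 5.47 and 12.9 CPM in UTX/Veh, at 2431, 4119 and 3902 CPM in IMQ/GW3965 and at 10667, 7393 and 7648 CPM in IMQ/Veh. The 185-fold rise (log2 7.53 ± 0.72, adjusted p = 1.4e-05) became a log2 of 8.57 without UTX/Veh replicate 1, the UTX/Veh library with the most Krt16. Krt17 rose 5.63-fold (adjusted p = 9.7e-05), from 158 to 193 CPM to 654, 1032 and 1194 CPM. The stefin Stfa3, a cysteine protease inhibitor, stood at 2.04, 0.376 and 1.32 CPM against 219, 528 and 639 CPM (366-fold, adjusted p = 4.5e-06). Klk6, a kallikrein protease of shedding skin, stood at 18.3, 15.1 and 16.1 CPM against 536, 646 and 751 CPM (log2 5.29 ± 0.20, 39.0-fold), with 810.0 to 1173 CPM in IMQ/Veh. Its adjusted p of 1.4e-07 was among the 6 lowest of the higher genes. Gjb6, which encodes the gap junction protein connexin 30, stood at 1.61, 1.59 and 1.49 CPM against 55.0, 83.0 and 81.9 CPM (46.6-fold, adjusted p = 7.6e-07). All 11 Sprr2 genes tested rose (10 or 11 over the alternatives other than a fold limit), as did all 6 Lce3 genes, the late envelope genes of injured skin. Lce3c stood at 4.01, 3.22 and 3.07 CPM against 107, 139 and 138 CPM (37.2-fold, adjusted p = 4.5e-07), and 133 to 217 CPM in IMQ/Veh. Members of the Sprr2, Lce, Stfa and Krt6 families have near-identical copies, and how their reads were divided depends on the estimated counts.

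The small proline-rich genes are cross-linked into the envelope of stressed keratinocytes, and AP-1 is a known regulator of them. The motif TGANTCA, on either strand, was found in the windows of 11 of 30 genes of the wound list (36.7%). It was found in 4 of 31 resting barrier genes (12.9%) and in 2425 of all 27025 genes with a window (8.97%). All of the 11 but Ivl and Stfa3 are Sprr genes, which are related copies and not separate cases. The motif is shown for the member with the largest fold and for a more abundant member. Each is read along the strand of its gene (plus for Sprr2b, minus for Sprr1b), with the motif in capitals.
Sprr2b, chr3:92316470-92316556: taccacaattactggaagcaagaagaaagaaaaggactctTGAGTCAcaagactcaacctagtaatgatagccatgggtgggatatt
Sprr1b, chr3:92438844-92438930: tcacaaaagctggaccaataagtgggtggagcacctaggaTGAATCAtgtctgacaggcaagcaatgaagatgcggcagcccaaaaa
Sprr2b stood at 0.0393, 0.0418 and 0.213 CPM in UTX/Veh, at 14.9, 72.5 and 99.6 CPM in IMQ/GW3965 and at 691, 492 and 295 CPM in IMQ/Veh. The rise was 609-fold on 7 UTX/Veh counts (log2 9.25 ± 1.16, adjusted p = 7.1e-05, log2 10.39 without UTX/Veh replicate 3), and it left Sprr2b below every IMQ/Veh library. Sprr1b stood at 9.51, 2.59 and 4.61 CPM, at 822, 900.1 and 832 CPM and at 1733, 1048 and 1119.9 CPM in the same order (152-fold over UTX/Veh, adjusted p = 1.7e-06, log2 7.25 and 7.89 without UTX/Veh replicate 1). Of AP-1 and related immediate early genes, Junb rose 2.24-fold (adjusted p = 7.0e-05) and Ier3 3.66-fold (adjusted p = 8.9e-06), while Fosb fell to 0.201 of its UTX/Veh level (adjusted p = 0.0053). Of the 20 immediate early and heat shock genes tested, 9 rose and 2 fell (1 without UTX/Veh replicate 3).

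Genes of the resting cornified layer were mostly raised above UTX/Veh as well. Of 37 tested, 30 rose and 4 fell (median log2 difference 1.34, beside 0.46 for IMQ/Veh against UTX/Veh), and 22 were higher than in IMQ/Veh (16 to 25 when a library was left out), where 3.71% of all genes were higher. The list summed to 31040 to 37196 CPM in UTX/Veh, 72678 to 85570 CPM in IMQ/GW3965 and 49558 to 60602 CPM in IMQ/Veh, without overlap. Krt1, the type II keratin of the spinous layer, stood at 1016, 796 and 904 CPM in UTX/Veh, at 13902, 16924 and 25661 CPM in IMQ/GW3965 and at 23609.5, 10592 and 20063 CPM in IMQ/Veh. It rose 20.8-fold over UTX/Veh (adjusted p = 4.1e-06). Its partner Krt10 rose 2.24-fold, from 9540.2, 10905 and 8822 CPM to 19867, 22545 and 23044 CPM (adjusted p = 3.7e-05). Flg, the filaggrin precursor, stood at 334, 402 and 365 CPM against 2466, 3035 and 3063 CPM (7.78-fold, adjusted p = 3.3e-05), and at 2422, 926 and 2794 CPM in IMQ/Veh. Rptn, another S100-fused envelope protein, stood at 13.4, 16.7 and 19.6 CPM against 935, 1579 and 2135 CPM (93.7-fold, log2 6.55 ± 0.55, adjusted p = 6.2e-06). The protease Casp14, which processes filaggrin, rose 13.5-fold (adjusted p = 2.2e-05), and involucrin (Ivl), counted in the wound list, rose 6.07-fold (adjusted p = 1.4e-05).

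Within that layer the Lce1 genes, late envelope genes of healthy skin, stood above both other groups. Of 14 tested, 13 rose and 1 fell against UTX/Veh (12 or 13 and 0 or 1 over the alternatives other than a fold limit), and 14 were higher than in IMQ/Veh (12 to 14). Lce1f stood at 112 CPM in each UTX/Veh library, at 429, 409.7 and 435 CPM in IMQ/GW3965 and at 191, 127 and 221 CPM in IMQ/Veh. That was 3.79-fold over UTX/Veh (adjusted p = 1.5e-05) and 2.37-fold over IMQ/Veh (adjusted p = 0.0064, and 0.050 in a fit of those 2 groups). Lce1i stood at 123, 138 and 119 CPM, at 333, 319 and 312 CPM and at 128, 97.0 and 149 CPM, 2.54-fold over UTX/Veh (adjusted p = 5.2e-05) and 2.58-fold over IMQ/Veh (adjusted p = 0.0028). Lce6a stood at 34.1, 34.6 and 34.8 CPM against 141, 131 and 155 CPM (4.13-fold over UTX/Veh, adjusted p = 1.1e-05), and was 3.00-fold over IMQ/Veh (adjusted p = 0.0028). For Lce1i the UTX/Veh and IMQ/Veh libraries overlapped, and only the IMQ/GW3965 libraries stood apart among these 3 groups. Other barrier genes stayed below UTX/Veh. Flg2, the filaggrin-like gene on chromosome 3 (93197278 to 93221391), stood at 1443, 1624 and 1576 CPM in UTX/Veh, at 522, 488 and 309 CPM in IMQ/GW3965 and at 44.1, 64.3 and 124 CPM in IMQ/Veh. It fell to 0.284 of UTX/Veh (log2 -1.82 ± 0.36, adjusted p = 0.0015) and was 5.67-fold above IMQ/Veh (adjusted p = 0.0066, and 0.050 in a fit of those 2 groups). Krt77, a keratin of sweat ducts and interfollicular epidermis, stood at 862, 674 and 813 CPM against 119, 139 and 117 CPM (0.159 of UTX/Veh, adjusted p = 0.0083), with 13.0, 4.94 and 79.7 CPM in IMQ/Veh. Lce1m stood at 348, 443 and 377 CPM against 254, 189 and 143 CPM, a log2 difference of -0.99 (adjusted p = 0.017). That call was lost without UTX/Veh replicate 2 (-0.89, adjusted p = 0.054) or IMQ/GW3965 replicate 3 (-0.84, adjusted p = 0.065). Krt2, the late spinous keratin, stood at 9066, 11306 and 8288 CPM against 14287, 15181 and 8271 CPM, a log2 difference of 0.40 that did not pass (adjusted p = 0.61).

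**Figure D3:**
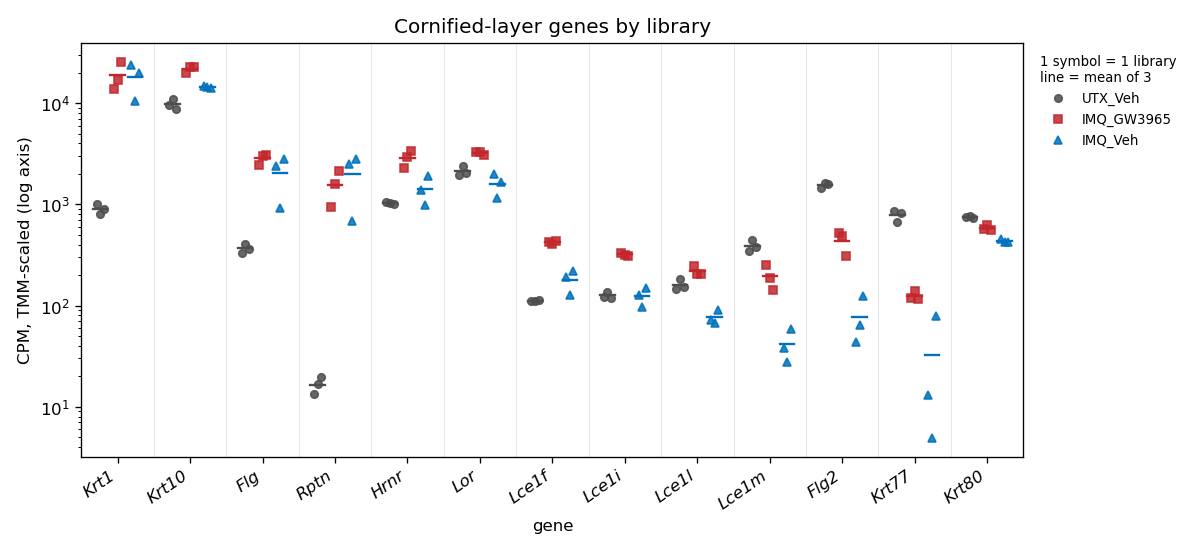
Levels of 13 cornified-layer genes in each library, as TMM-scaled CPM on a log axis, for UTX/Veh, IMQ/GW3965 and IMQ/Veh. Each symbol is a library and each line the mean of 3. Lce1f and Lce1i were highest in IMQ/GW3965, while Flg2 in IMQ/GW3965 (309 to 522 CPM) lay between UTX/Veh and IMQ/Veh.

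Basal keratinocyte genes split. Of 15 tested, 4 rose and 7 fell (26.7% and 46.7%, against 28.7% and 21.5% of all genes). Krt14 stood at 3356, 3721 and 3378 CPM in UTX/Veh and 9937, 12373 and 11382 CPM in IMQ/GW3965 (3.22-fold, adjusted p = 4.0e-05), with 13186 to 19509 CPM in IMQ/Veh. Krt15, a basal keratin of quiescent epidermis and the hair bulge, fell from 897, 1015 and 732 CPM to 326, 292 and 236 CPM (0.323 of UTX/Veh, adjusted p = 4.5e-04). Dst, whose product anchors keratin to hemidesmosomes, fell to 0.408 of UTX/Veh (adjusted p = 1.9e-04), and Col17a1 fell to 0.584 (adjusted p = 3.4e-04). Division genes passed in 29 of 30 cases, all higher (median log2 difference 1.91, beside 2.43 for IMQ/Veh against UTX/Veh). Mki67 stood at 81.9, 85.8 and 65.1 CPM in UTX/Veh, at 216, 275 and 274 CPM in IMQ/GW3965 and at 408, 433 and 274 CPM in IMQ/Veh (3.29-fold over UTX/Veh, adjusted p = 1.9e-05). The mitotic kinase gene Plk1 stood at 4.01, 5.22 and 3.67 CPM against 26.7, 32.2 and 32.0 CPM (7.04-fold, adjusted p = 3.6e-06). Growth factors of the EGF family, which keratinocytes release in wounds, rose in 6 of 11 cases and fell in 1, Btc (log2 -0.94, adjusted p = 0.039). The Btc call was lost without UTX/Veh replicate 2 or 3 and without each IMQ/GW3965 replicate, when no member of the list passed as lower. Epgn stood at 0.668, 0.585 and 1.02 CPM against 25.2, 41.3 and 51.8 CPM (51.6-fold, adjusted p = 9.2e-06) and Areg at 0.471, 0.459 and 0.384 CPM against 4.79, 6.80 and 9.12 CPM (15.4-fold, adjusted p = 4.9e-05). Glycolysis and hypoxia genes passed in 18 of 24 cases, all higher, Eno1, a glycolytic enzyme, from 226, 231 and 237 CPM to 793, 891 and 971 CPM (3.82-fold, adjusted p = 2.8e-06).

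Among the lipid genes, some in IMQ/GW3965 overlapped UTX/Veh, as Scd1 did, and others, such as Apod, stood above it. A narrow form of the LXR response element (GGTTACT, then 3 free bases, then GGTCA), on either strand, was present in 5 of all 27025 genes with a promoter window (0.0185%). Looser forms were not searched, so a window without this form may still hold an LXR site. Matches describe the letters only and are no test of the list. Of 21 LXR target genes with a window, the 2 that held this form were Abca1 and Srebf1. Both are shown along the strand of the gene (minus for both), with the element in capitals in its reverse-complement form. It lies 67 to 53 bases before the start of Abca1 and 182 to 168 bases before a Srebf1 start that is inside the gene as GENCODE draws it.
Abca1, chr4:53159908-53160002: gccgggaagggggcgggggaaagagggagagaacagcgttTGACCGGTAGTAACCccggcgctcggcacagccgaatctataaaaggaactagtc
Srebf1, chr11:60210599-60210693: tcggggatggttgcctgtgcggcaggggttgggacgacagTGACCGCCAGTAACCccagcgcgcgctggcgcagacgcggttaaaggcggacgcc
Neither gene passed against UTX/Veh. Abca1, the cholesterol exporter, stood at 109, 113 and 151 CPM in UTX/Veh, at 119, 179 and 124 CPM in IMQ/GW3965 and at 88.7, 56.0 and 101 CPM in IMQ/Veh. Its log2 difference from UTX/Veh was 0.18 (95% interval -0.34 to 0.70, adjusted p = 0.55), and -0.08 without IMQ/GW3965 replicate 2. Srebf1, the transcription factor of fatty acid synthesis, stood at 263, 255 and 239 CPM, at 311, 347 and 265 CPM and at 111, 159 and 123 CPM. It was 2.35-fold above IMQ/Veh (adjusted p = 0.0028), and 0.29 on the log2 scale from UTX/Veh (interval -0.03 to 0.60, adjusted p = 0.11). The levels of the receptor genes were close, with log2 differences of 0.19 for Nr1h3 (interval -0.47 to 0.84, adjusted p = 0.63) and -0.14 for Nr1h2 (interval -0.30 to 0.02, adjusted p = 0.14). With upper-quartile scaling Nr1h2 passed (log2 -0.24, adjusted p = 0.019).

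Of 28 LXR targets tested, 13 rose and 4 fell against UTX/Veh (46.4% and 14.3%, against 28.7% and 21.5% of all genes). Those that fell numbered 1 to 2 without UTX/Veh replicate 1 or 3 or IMQ/GW3965 replicate 2 or 3. Set against IMQ/Veh, 8 were higher and 2 lower, where 3.71% and 2.88% of all genes were (3 to 14 higher when a library was left out). Some targets stood above both other groups. Apod, a lipocalin that carries lipids, stood at 347, 407 and 404 CPM in UTX/Veh, at 1208, 780.3 and 749 CPM in IMQ/GW3965 and at 170.1, 247 and 240.0 CPM in IMQ/Veh. It was 2.37-fold over UTX/Veh (adjusted p = 3.4e-04) and 4.16-fold over IMQ/Veh (adjusted p = 0.0022). The desaturase Scd3 stood at 3.69, 2.71 and 23.0 CPM, at 93.9, 80.4 and 48.6 CPM and at 5.03, 7.51 and 4.46 CPM. Its log2 difference from UTX/Veh was 2.93 ± 0.63 (adjusted p = 0.0025), and 4.53 without UTX/Veh replicate 3, the UTX/Veh library with the most Scd3. Against IMQ/Veh it was 3.70 (adjusted p = 0.015), with adjusted p of 0.061 without IMQ/Veh replicate 1 and 0.064 without IMQ/GW3965 replicate 1. Apoe, the cholesterol acceptor, stood at 1599, 1584 and 1775 CPM, at 2048, 1943 and 2007 CPM and at 929, 1121 and 956 CPM. It was 1.99-fold over IMQ/Veh (adjusted p = 0.0025), and just missed the threshold against UTX/Veh (log2 0.27, adjusted p = 0.059). Its UTX/Veh and IMQ/GW3965 libraries did not overlap, as for 11417 of all 17130 genes. Apoe was called under some alternatives. It passed with limma-voom (0.033), in a fit of the 2 groups alone (0.037) and within lane L001 (0.032). Scd1, the major stearoyl-CoA desaturase of sebocytes, stood at 5279, 5477 and 5616 CPM, at 5400.5, 3982 and 4209 CPM and at 1015, 2139 and 2181 CPM. Its log2 difference from UTX/Veh was -0.27 (interval -0.79 to 0.26, adjusted p = 0.37). Abcg1, the exporter to high-density lipoprotein, stood at 36.8, 31.8 and 39.2 CPM against 55.4, 76.8 and 67.4 CPM (1.85-fold, adjusted p = 0.0015), with 54.1, 35.8 and 52.4 CPM in IMQ/Veh. Arl4c, a small GTPase gene, fell from 92.9, 105 and 90.0 CPM to 47.7, 46.7 and 39.4 CPM (log2 -1.11, adjusted p = 2.6e-05).

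Among 28 fatty acid synthesis genes, 8 rose and 4 fell against UTX/Veh (28.6% and 14.3%, against 28.7% and 21.5% of all genes), so the share that rose was that of all genes. Their median log2 difference was 0.24, beside -0.53 for IMQ/Veh against UTX/Veh. In the less stable comparison with IMQ/Veh, 13 were higher and 0 lower, where 3.71% and 2.88% of all genes were. Scd2, another stearoyl-CoA desaturase, rose 2.82-fold, from 334, 341 and 308 CPM to 805, 985 and 978 CPM (adjusted p = 1.6e-04). Acaca, the acetyl-CoA carboxylase that commits carbon to synthesis, rose 1.61-fold (adjusted p = 3.5e-04). Fasn did not pass (log2 0.16, interval -0.25 to 0.58, adjusted p = 0.50). Elovl6, which lengthens palmitate, stood at 729, 701 and 991 CPM, at 466, 422 and 426 CPM and at 181, 246 and 211 CPM, between the other groups and apart from each. It fell to 0.542 of UTX/Veh (adjusted p = 6.4e-04) and was 2.06-fold above IMQ/Veh (adjusted p = 0.0067). Elovl5 fell to 0.709 of UTX/Veh (adjusted p = 0.0019). Cholesterol synthesis genes rose in 23 of 26 cases (median log2 difference 0.90, beside 0.79 for IMQ/Veh against UTX/Veh), and 1 fell (0 without UTX/Veh replicate 2 or IMQ/GW3965 replicate 3). The sterol isomerase gene Ebp rose 2.72-fold (adjusted p = 7.3e-06). Insig1, which retains SREBP in the endoplasmic reticulum, stood at 52.5, 52.9 and 52.8 CPM against 97.7, 86.7 and 90.1 CPM (1.74-fold, adjusted p = 1.8e-04).

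**Figure D4:**
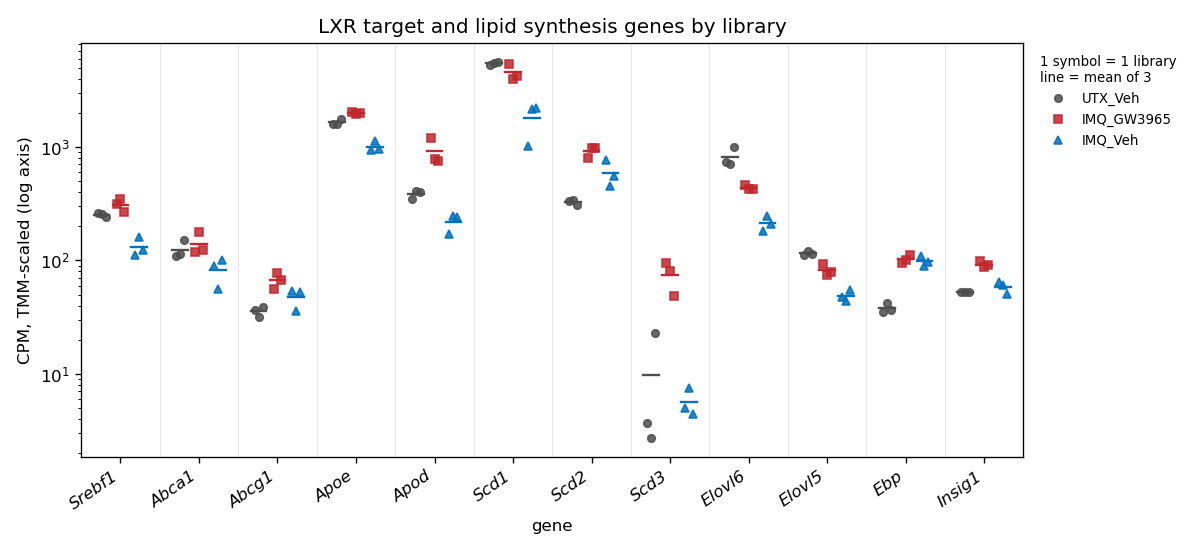
Levels of 12 LXR target and lipid synthesis genes in each library, as TMM-scaled CPM on a log axis, for UTX/Veh, IMQ/GW3965 and IMQ/Veh. Each symbol is a library and each line the mean of 3. Apod was highest in IMQ/GW3965, the IMQ/GW3965 and UTX/Veh libraries overlapped for Scd1, and Elovl6 (422 to 466 CPM) lay between the other groups.

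Barrier lipid enzymes, which build the acylceramides of the cornified layer, rose in 20 of 25 cases and fell in 1, the same Elovl6 (median log2 difference 1.04, beside 0.92 for IMQ/Veh against UTX/Veh). Degs2, the enzyme of phytoceramides, stood at 6.60, 6.81 and 6.02 CPM against 62.6, 61.5 and 63.1 CPM (9.63-fold, adjusted p = 1.9e-06), with 41.9 to 74.4 CPM in IMQ/Veh. Cers3, the ceramide synthase for ultra-long acyl chains, rose 4.11-fold (adjusted p = 2.1e-06), and Elovl4, which makes those chains, 1.71-fold (adjusted p = 0.0010). PPAR targets rose in 9 of 34 cases and fell in 4 (26.5% and 11.8%, both under the shares of all genes). Those that fell numbered 1 to 2 without UTX/Veh replicate 3 or IMQ/GW3965 replicate 2 or 3. Fabp5, an epidermal fatty acid carrier in that list, stood at 266, 315 and 281 CPM, at 2344, 2951 and 3429 CPM and at 6183, 3789 and 4814 CPM (10.1-fold over UTX/Veh, adjusted p = 2.3e-06). Sebaceous gland genes rose in 7 of 24 cases and fell in 3 (29.2% and 12.5%), again near the share of all genes that rose. Their summed level was 7662 to 8097 CPM in UTX/Veh, 6972 to 8895 CPM in IMQ/GW3965 and 2556 to 4751 CPM in IMQ/Veh, so IMQ/GW3965 overlapped UTX/Veh and not IMQ/Veh. The list did not move as a block. Elovl3, a sebocyte elongase, stood at 101, 122 and 86.5 CPM against 371, 269 and 336 CPM (3.16-fold, adjusted p = 0.0030), and Krt79 rose 2.61-fold (adjusted p = 3.9e-04). The melanocortin receptor gene Mc5r fell to 0.298 (adjusted p = 1.7e-04).

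Among the immune cell lists, most monocyte and macrophage genes rose, while 12 of 27 T cell and 11 of 23 dendritic cell genes fell, against 21.5% of all genes. The pan-leukocyte gene Ptprc itself showed a log2 difference of 0.17 (interval -0.37 to 0.71, adjusted p = 0.59). Of 27 monocyte and macrophage genes, 21 rose and 1 fell, Mertk, and that call was lost without any UTX/Veh replicate or without IMQ/GW3965 replicate 2 or 3 (log2 -0.82, and -0.67 without IMQ/GW3965 replicate 3). The median log2 difference was 1.55, beside 1.58 for IMQ/Veh against UTX/Veh. Adgre1, the macrophage antigen F4/80, stood at 12.2, 12.2 and 19.6 CPM in UTX/Veh, at 60.7, 108 and 125 CPM in IMQ/GW3965 and at 63.9, 28.3 and 104 CPM in IMQ/Veh. It rose 6.67-fold over UTX/Veh (adjusted p = 2.8e-04), and the IMQ/GW3965 and IMQ/Veh libraries overlapped. The integrin gene Itgam, also expressed by neutrophils, stood at 10.1, 8.23 and 12.9 CPM against 39.7, 59.8 and 78.9 CPM (5.71-fold, adjusted p = 9.3e-05). The complement gene C1qa, a marker of resident macrophages, rose 2.92-fold (adjusted p = 0.0012) and lysozyme, Lyz2, 3.16-fold (adjusted p = 3.8e-04). Ccr2, the receptor of recruited monocytes, behaved differently. It stood at 13.3, 9.19 and 20.2 CPM in UTX/Veh, at 11.1, 9.76 and 13.4 CPM in IMQ/GW3965 and at 46.3, 37.4 and 63.5 CPM in IMQ/Veh. Its log2 difference was -0.32 from UTX/Veh (interval -0.95 to 0.31, adjusted p = 0.38) and -2.10 from IMQ/Veh (adjusted p = 0.0060). Chil3, made by alternatively activated macrophages and neutrophils, stood at 0.511, 0.334 and 0.256 CPM against 3.57, 13.0 and 11.6 CPM (24.8-fold, adjusted p = 4.4e-04).

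Cxcl13, the chemokine that draws B cells, stood above both other groups. On chromosome 5 (95956951 to 95961068), it stood at 0.0786, 0.209 and 0.256 CPM in UTX/Veh, at 45.9, 63.7 and 46.6 CPM in IMQ/GW3965 and at 13.0, 6.35 and 8.76 CPM in IMQ/Veh. It was 282-fold over UTX/Veh (log2 8.14 ± 0.43, adjusted p = 8.5e-07) on 13 UTX/Veh counts and 5.59-fold over IMQ/Veh (adjusted p = 0.0024). Of 8 B cell genes matched, 4 were tested and 3 rose (75%, against 28.7% of all genes), with a median log2 difference of 0.03 from IMQ/Veh. The B cell genes Cd79a, Ms4a1, Pax5 and Jchain were below the filter, with 10, 2, 1 and 7 counts in UTX/Veh and 9, 3, 0 and 0 in IMQ/GW3965.

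T cell and innate-like lymphocyte genes fell in 12 of 27 cases and rose in 1, Cd5 (1.97-fold, adjusted p = 0.0014), with a median log2 difference of -0.60, beside -0.86 for IMQ/Veh against UTX/Veh. All 4 genes of the CD3 signalling complex fell (3 or 4 over the alternatives other than a fold limit, with Cd3d at an adjusted p of 0.063 without UTX/Veh replicate 1 and 0.053 without IMQ/GW3965 replicate 2). Cd3e stood at 11.0, 8.35 and 9.14 CPM in UTX/Veh, at 2.08, 2.91 and 2.70 CPM in IMQ/GW3965 and at 2.59, 3.66 and 2.57 CPM in IMQ/Veh. It fell to 0.269 of UTX/Veh (log2 -1.90 ± 0.20, adjusted p = 2.8e-05) without overlap. Cd3g fell to 0.376 (adjusted p = 2.2e-04) and Cd247 to 0.403 (adjusted p = 1.0e-04). The gamma delta receptor gene Tcrg-C4 fell by 1.81 on the log2 scale (adjusted p = 0.0053), by 2.62 without IMQ/GW3965 replicate 3 and by 1.49 within lane L001, where it did not pass (adjusted p = 0.065). The chemokine gene Xcl1, made by activated T and NK cells, stood at 1.89, 2.21 and 0.470 CPM against 0.135, 0.0519 and 0.135 CPM (adjusted p = 0.0033). Summed over the list, T cell genes stood at 350 to 372 CPM in UTX/Veh, 246 to 280 CPM in IMQ/GW3965 and 246 to 270 CPM in IMQ/Veh. In the same libraries the wound list rose from 701 to 966 CPM in sum to 11254 to 18866 CPM, and the part of that shift in the lower share of T cell transcripts was not tested.

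Dendritic and Langerhans cell genes fell in 11 of 23 cases and rose in 3 (6 lower within lane L001). Mgl2, a lectin of dermal dendritic cells, stood at 36.0, 25.0 and 46.1 CPM in UTX/Veh, at 9.35, 8.46 and 11.5 CPM in IMQ/GW3965 and at 10.1, 8.36 and 17.7 CPM in IMQ/Veh (0.273 of UTX/Veh, adjusted p = 2.3e-04). Cd209a fell to 0.281 (adjusted p = 0.0024) and the cytokine receptor gene Flt3 to 0.364 (adjusted p = 0.0066). All 5 class II antigen presentation genes tested fell (3 of 5 within lane L001). Cd74, the invariant chain, stood at 578, 406 and 655 CPM against 268, 239.7 and 328 CPM (0.510 of UTX/Veh, adjusted p = 0.0026). H2-Ab1 fell to 0.540 (adjusted p = 0.0025). Interferon-stimulated genes did not follow the inflammatory lists. Of 32 tested, 3 passed and all of these fell, Stat2, Ifih1 and Ddx58, by 0.46, 0.62 and 0.63 on the log2 scale. These calls were not stable, since 0 passed as lower without UTX/Veh replicate 1 or 2, 1 passed without each IMQ/GW3965 replicate, and a fit of the 2 groups alone gave 3 higher and 8 lower.

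**Figure D5:**
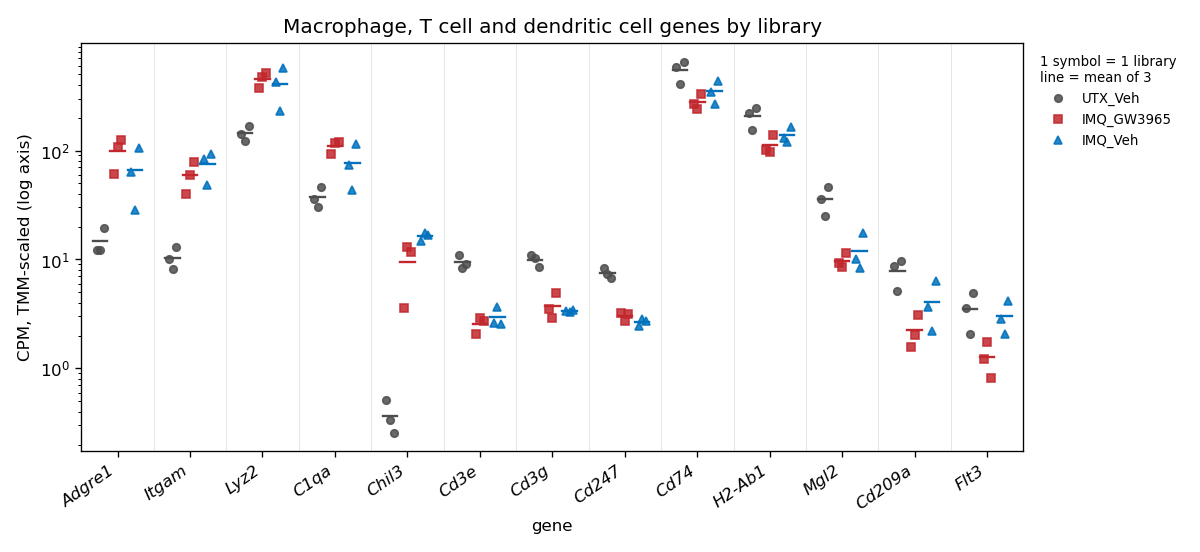
Levels of 13 macrophage, T cell and dendritic cell genes in each library, as TMM-scaled CPM on a log axis, for UTX/Veh, IMQ/GW3965 and IMQ/Veh. Each symbol is a library and each line the mean of 3. Adgre1 was higher and Cd3e, Mgl2 and Cd74 were lower in all 3 IMQ/GW3965 libraries than in any UTX/Veh library.

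Type 2 immunity genes, named in the title of the series, did not move in 1 direction. Of 20 tested, 8 were higher and 3 lower (40% and 15%, against 28.7% and 21.5% of all genes). Il4ra, the shared receptor chain for IL-4 and IL-13, stood at 35.3, 29.9 and 40.3 CPM in UTX/Veh, at 53.5, 125 and 75.9 CPM in IMQ/GW3965 and at 113, 147 and 164 CPM in IMQ/Veh (2.41-fold over UTX/Veh, adjusted p = 0.0040). Tslp, an epithelial cytokine that primes type 2 responses, stood at 3.14, 2.17 and 1.92 CPM against 10.5, 8.93 and 6.96 CPM (3.64-fold, adjusted p = 6.8e-05), with 3.21 to 4.51 CPM in IMQ/Veh. Retnla, induced by IL-4 in macrophages, stood at 7.31, 1.75 and 8.67 CPM against 0.903, 0.208 and 0.338 CPM. It fell by 3.54 on the log2 scale (adjusted p = 0.0025), and by 4.44 without IMQ/GW3965 replicate 1. Ccl24, an eosinophil chemokine, fell by 2.31 (adjusted p = 0.0025). The cytokines Il4 and Il13 were below the filter, with 4 and 8 counts in UTX/Veh and 7 and 5 in IMQ/GW3965. Of 16 mast cell genes, 2 rose and 1 fell (12.5% and 6.25%, under the 28.7% and 21.5% of all genes). Their median log2 difference was 0.05. The receptor gene Kit was the member that fell (log2 -0.85). Hdc, the histamine-forming enzyme, rose 3.55-fold (adjusted p = 3.2e-05), from 5.81, 3.38 and 4.57 CPM to 15.5, 18.0 and 15.5 CPM. It was lower than in IMQ/Veh, where it stood at 31.3, 46.9 and 44.7 CPM (log2 -1.33, adjusted p = 0.0063).

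Among lists of other tissues in the ear, cartilage genes passed in 15 of 18 cases, all lower, against 21.5% of all genes (median log2 difference -1.87, beside -1.71 for IMQ/Veh against UTX/Veh). Their summed level was 2832 to 4067 CPM in UTX/Veh, 1777 to 2919 CPM in IMQ/GW3965 and 491 to 1425 CPM in IMQ/Veh. Col11a2 stood at 101, 69.6 and 93.5 CPM against 16.8, 14.4 and 14.4 CPM (0.172 of UTX/Veh, adjusted p = 2.4e-04). Skeletal muscle genes fell in 6 of 25 cases, 24%, near the share of all genes (2 without UTX/Veh replicate 3 or IMQ/GW3965 replicate 2 or 3, and 18 in a fit of the 2 groups alone). Among them the calcium channel gene Ryr1 stood at 402, 429.7 and 500.0 CPM against 198, 155 and 111 CPM (0.349, adjusted p = 0.0037). The muscle list summed to 2870, 3175 and 10190 CPM in IMQ/Veh replicates 1 to 3, against 10963 to 15170 CPM in IMQ/GW3965. Its median log2 difference from IMQ/Veh was 1.27, beside -0.01 over all genes. Adipocyte genes rose in 1 of 20 cases and fell in 3 against UTX/Veh (5% and 15%, against 28.7% and 21.5% of all genes). Their median log2 difference from IMQ/Veh was 1.02. Fibroblast and collagen genes fell in 7 of 25 cases, 28% (4, 3 and 4 without UTX/Veh replicate 1, UTX/Veh replicate 3 or IMQ/GW3965 replicate 1), with Eln at 0.345 (adjusted p = 0.0042) and Fn1 at 0.353 of UTX/Veh (adjusted p = 0.0054). Dpp4, a surface peptidase of some dermal fibroblasts and of other cells, rose 2.89-fold (adjusted p = 5.7e-04). Melanocyte and nerve genes fell in 7 of 15 cases. Erythrocyte genes rose in 5 of 7 cases, from 153 to 202 CPM in sum to 473 to 585 CPM, and Hbb-bs rose 3.59-fold (adjusted p = 4.4e-04). The 21 endothelial genes gave 1 higher and 1 lower. The part of these tissue lists in the other results was not tested.

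Genes outside these programmes were among the most altered. Paqr7, a membrane progestin receptor, stood at 281, 203 and 414 CPM in UTX/Veh, at 25.8, 18.6 and 13.2 CPM in IMQ/GW3965 and at 8.92, 8.40 and 11.9 CPM in IMQ/Veh (log2 -3.95 ± 0.31, adjusted p = 4.6e-06). Tgm7, a transglutaminase, stood at 4.16, 4.43 and 3.71 CPM against 0.135, 0.208 and 0 CPM (log2 -4.99 ± 0.58, adjusted p = 4.6e-05, and -5.64 without IMQ/GW3965 replicate 2). It had the lowest log2 difference of the genes named by size. The serpin genes Serpinb1c and Serpina3b fell by 4.12 (adjusted p = 2.7e-05) and 3.32 (adjusted p = 3.1e-04), the latter by 3.96 without IMQ/GW3965 replicate 1. Add2, an adducin of the membrane skeleton, fell from 4.12, 5.18 and 6.10 CPM to 0.406, 0.415 and 0.473 CPM (log2 -3.56 ± 0.28, adjusted p = 4.6e-06). Tmem229a, a transmembrane protein gene, fell from 22.9, 22.1 and 20.9 CPM to 5.06, 4.99 and 4.86 CPM, and its adjusted p of 1.5e-06 was the lowest of the named lower genes. Its relative Tmem229b rose, from 26.9, 21.7 and 24.7 CPM to 161, 189 and 188 CPM (7.34-fold, adjusted p = 4.6e-07), with 123 to 167 CPM in IMQ/Veh. The helix-loop-helix gene Tcf23 stood at 0.157, 0 and 0.0854 CPM in UTX/Veh, at 24.1, 29.5 and 32.4 CPM in IMQ/GW3965 and at 46.9, 32.7 and 41.4 CPM in IMQ/Veh. On 6 UTX/Veh counts its rise was 325-fold (log2 8.35 ± 0.35, adjusted p = 2.0e-07, log2 9.22 without UTX/Veh replicate 1). Abcb11, the bile salt export pump, had 5 counts in UTX/Veh and 106 in IMQ/GW3965, where it stood at 1.94, 1.45 and 2.36 CPM (adjusted p = 5.8e-05).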

How the data were processed

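Whole ear skin was profiled by RNA-seq from libraries made with a stranded mRNA kit, per the labels' protocols. The authors deposited RSEM tables of estimated counts per gene; STAR 2.7.3a and RSEM 1.3.3, with FastQC and Trim Galore, are listed in the submitters' processing notes, as is GRCm38 (mm10). Neither annotation release nor strand setting is stated there, so genes that overlap on opposite strands are uncertain. Of 55416 gene identifiers, 52135 were matched to GENCODE release 21 for names and coordinates and 3281 were not.

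The expected counts were rounded to whole numbers, filtered with filterByExpr by group, TMM-scaled and tested with edgeR 4.0.16 (quasi-likelihood F test, R 4.3.3). All 12 libraries entered 1 fit, with 8 residual degrees of freedom, and adjusted p-values are Benjamini-Hochberg over the 17130 genes tested, with a threshold of 0.05. Replicates were the 3 libraries of each label, and no library was dropped or merged. Levels are TMM-scaled CPM, intervals are 95%, and counting intervals and floors cover counting error only. The fitting script was tested on simulated counts.

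The libraries compared were chosen by label, but the 33 gene lists and the genes described were chosen with earlier results of these data known. Named genes are the 10 largest changes in each direction (annotated symbol, at least 1 CPM in the higher group, no overlap), up to 3 per list, a fixed set, and the 6 lowest adjusted p-values in each direction. Further genes were chosen after their values were seen (Cxcl1, Il1a, Cxcr2, Csf3r, Fpr2, Ltf, Mmp9, Il22, Il20ra, Il1f9, Nfkbiz, Il1rl2, Il6, Csf3, Ppbp, Lcn2, Slpi, Wfdc21, Sprr1b, Sprr4, Krt17, Ivl, Lce1f, Lce1i, Lce1m, Lce6a, Krt77, Krt2, Col17a1, Btc, Elovl4, Elovl5, Elovl6, Apod, Arl4c, Acaca, Fasn, Insig1, Krt79, Lyz2, C1qa, Itgam, Ccr2, Mertk, Cd3d, Cd3g, Cd247, Cd5, Cd74, H2-Ab1, Tslp, Ccl24, Cd79a, Ms4a1, Pax5, Jchain). Alternatives covered scaling, DESeq2 1.42.0, limma-voom (limma 3.58.1), filters, the samples fitted, the replicate number, lane, abundant genes, a 2-fold limit and each library left out. Promoter windows came from RefSeq (GRCm38.p6). Troglitazone libraries entered the filter, the scaling, the fit and the principal components, but no comparison. Some genes of the lists are counted but not reported here by name.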

Additional observations from a re-analysis of the deposited data

How the results depend on the processing

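Among the alternatives run for IMQ/GW3965 against UTX/Veh, the counts of changed, higher and lower genes stayed within 1.5 times of 8606, 4923 and 3683 except with the fold limit of 2 (2871, 1548 and 1323). Leaving out each library gave 6844 to 8313 changed, 3986 to 4799 higher and 2801 to 3514 lower. Of 125 genes chosen by the naming rule and called, 125 kept their sign and 103 kept their call under every alternative. Signs turned for uncalled genes. Abca1 ran from -0.078 (without IMQ/GW3965 replicate 2) to 0.34 with a library left out, Ppbp was -0.079 within lane L001, and Ccr2 was 0.13 within lane L001 and ran from -0.55 to 0.022 (without UTX/Veh replicate 3) with a library left out. The comparison with IMQ/Veh (1129 changed, 635 higher, 494 lower) was less stable. It gave 2222, 1174 and 1048 with DESeq2, 102, 63 and 39 in a fit of the 2 groups alone, 549, 323 and 226 with lane as a covariate, and 466, 290 and 176 with the fold limit. Within lane L001, where IMQ/Veh is 1 library assumed to vary like the other groups, it gave 2347, 1583 and 764, which says nothing of stability. Leaving out each library gave 105 to 3645 changed, 77 to 2157 higher and 28 to 1488 lower. Signs against IMQ/Veh turned for Il1f6 (0.19 against that 1 library) and Krt5 (-0.0021 with RLE scaling and with DESeq2, and -0.058 to 0.12 with a library left out, below 0 without IMQ/Veh replicate 2 or 3 or IMQ/GW3965 replicate 2 or 3). The cause was not tested. A replicate block gave 8721 changed, 4951 higher and 3770 lower against UTX/Veh, and 1426, 831 and 595 against IMQ/Veh. The numbers share no pairing in the labels, and the deviations of same-numbered IMQ/GW3965 and UTX/Veh libraries correlated at -0.0615, -0.000151 and -0.00799, those of IMQ/GW3965 and IMQ/Veh at -0.229, 0.0479 and -0.0122. With 3 libraries a group and few counts in UTX/Veh, folds of genes near 0 there are imprecise.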
